A study of Mus musculus with 4 samples.

Results

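The activating signalling route of natural killer (NK) cells was followed through 10 genes in NK cells from bone marrow: the receptors Ncr1 and Fcgr3, the adaptor chains Tyrobp, Hcst, Fcer1g and Cd247, the kinases Syk and Zap70, the exchange factor Vav1 and the phospholipase Plcg2. These 10 genes, chosen by name for their place in the route, were taken from 37310 genes in the deposited tables. By symbol 9 of them were found. Syk is listed under its older symbol Sykb and was found by its Ensembl identifier. All 10 passed the filter on low counts, as did 13904 genes in all.

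The dKO cells came from mice with the genotype Gabpb1l-/-Gabpb2-/-, in which Gabpb2 and the long Gabpb1 isoform are deleted, and so lack the tetramer of the Ets-family transcription factor GABP. The Ctrl cells came from littermates, whose genotype the labels give as Ctrl without naming alleles. Each group had 2 biological replicates. All animals were C57BL/6 mice aged 6 to 8 weeks, and the sort took CD3e-NK1.1+CD49b+ cells of the marrow into Trizol for Smart-seq2 libraries. The labels do not say whether a replicate was 1 animal or a pool, and they name no Cre or promoter.

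NK cells carry activating receptors with short tails that cannot signal alone. These receptors pair in the membrane with adaptor chains, most of which hold an immunoreceptor tyrosine-based activation motif (ITAM), a stretch with a pair of tyrosines. Src-family kinases phosphorylate the ITAM, Syk or Zap70 dock there, and they hand the signal to Vav1, which drives actin remodelling, and to phospholipase C gamma, which starts the calcium signal for killing and cytokine release. Hcst (DAP10) differs from the other adaptors in that it has no ITAM and recruits phosphatidylinositol kinase and Vav1 instead.

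GABP binds DNA sites with the core CCGGAA through its alpha subunit, so the stretches before the start sites of these genes were searched for those letters on both strands. The 4 windows below hold the 250 bases upstream of a RefSeq start (build GRCm38.p6) and run 5′ to 3′ on the strand of the gene, with CCGGAA or its reverse complement TTCCGG in capitals. They are shown because Zap70 and Fcer1g were the members with a match, and because Cd247 and Plcg2 were, with Zap70, the members with the smallest p. Zap70 (chr1:36761548-36761797, plus strand) has its match 89 bases before the start and Fcer1g (chr1:171234350-171234599, minus strand) 71 bases before it. The windows of the other RefSeq starts of Zap70 (chr1:36764265-36764514 and chr1:36778734-36778983) have no match. Cd247 (chr1:165788431-165788680, plus strand) and Plcg2 (chr8:117498025-117498274, plus strand) have no match.
Zap70: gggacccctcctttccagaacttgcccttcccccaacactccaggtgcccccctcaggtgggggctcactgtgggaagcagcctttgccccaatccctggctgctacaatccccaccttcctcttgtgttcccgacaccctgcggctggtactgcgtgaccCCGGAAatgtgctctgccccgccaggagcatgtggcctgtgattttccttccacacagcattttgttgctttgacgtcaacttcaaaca
Fcer1g: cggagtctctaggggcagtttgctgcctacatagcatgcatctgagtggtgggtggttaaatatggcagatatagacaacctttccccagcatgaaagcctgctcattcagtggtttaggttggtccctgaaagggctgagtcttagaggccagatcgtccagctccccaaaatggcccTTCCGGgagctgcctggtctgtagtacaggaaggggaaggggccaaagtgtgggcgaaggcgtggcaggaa
Cd247: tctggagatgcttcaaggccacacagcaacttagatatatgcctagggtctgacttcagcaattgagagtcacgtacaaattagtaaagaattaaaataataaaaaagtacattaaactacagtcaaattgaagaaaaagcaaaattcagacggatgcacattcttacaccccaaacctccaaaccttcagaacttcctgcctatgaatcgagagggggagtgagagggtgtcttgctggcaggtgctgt
Plcg2: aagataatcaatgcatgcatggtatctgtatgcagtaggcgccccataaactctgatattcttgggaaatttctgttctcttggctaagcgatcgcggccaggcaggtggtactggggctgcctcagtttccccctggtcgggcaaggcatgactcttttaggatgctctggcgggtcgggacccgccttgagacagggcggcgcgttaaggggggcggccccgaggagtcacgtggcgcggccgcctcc

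Of 14 such windows for 9 members, 2 held CCGGAA on either strand. Tyrobp was not matched in the table of start sites. Among all 32851 windows of the same length, 12% held these letters. A match is a run of letters and not a measured binding site. On GRCm38 the remaining genes lie on chromosome 7 from 4337724 to 4345164 (Ncr1), chromosome 1 from 171051174 to 171064935 (Fcgr3), chromosome 13 from 52583173 to 52648792 (Syk) and chromosome 17 from 57279100 to 57328031 (Vav1). Zap70 spans 36761798 to 36782818, Cd247 165788681 to 165877277 and Fcer1g 171229572 to 171234365 on chromosome 1, and Plcg2 spans 117498291 to 117635142 on chromosome 8. Exons of Cd247 overlap exons of Gm16565 on the same strand and of Pou2f1 on the opposite strand, so its reads may not be fully separable, and no other member shares exon bases with another gene there.

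Depth was similar across the series, with 30233870 to 34724516 counts in genes per library. The number of genes with any count was not: it was 19450 and 19220 in dKO and 15921 and 18206 in Ctrl. Both dKO libraries thus had more genes detected than both Ctrl libraries, and the cause was not tested. Gabpb2 had 85 and 86 counts in the dKO libraries, against 1244 and 1009 counts in the Ctrl libraries, so it was low in the libraries labelled dKO. Gabpb1, counted over the whole gene and so blind to the long isoform, had 81.2 and 79.4 CPM (counts scaled to the size of the library) in dKO and 57.1 and 52.04 CPM in Ctrl. In the length-scaled RSEM values of the authors (TPM), which depend on which isoforms are assigned, Gabpb1 had 151 and 166 TPM in dKO and 74.6 and 58.1 TPM in Ctrl. Gabpa had 102 and 98.4 CPM in dKO and 81.6 and 80.8 CPM in Ctrl. Neither gene passed on counts (edgeR adjusted p = 0.273 for Gabpb1 and 0.578 for Gabpa). The 11 markers of NK identity, of which Ncr1 is also a member, summed to 14671 and 14621 CPM in dKO and to 17537 and 17455 CPM in Ctrl. The lowest of them, Eomes, had 42.9 and 54.1 CPM in dKO and 42.2 and 44.8 CPM in Ctrl. None was called, 8 had a negative log2 fold change, and the median was -0.21. At an unadjusted p under 0.05 (edgeR), 2 were lower (Gzma and Prf1) and 0 higher. Gzma had 822 and 1089 CPM in dKO and 2074 and 1469 CPM in Ctrl. Prf1 had 1211 and 1189 CPM in dKO and 1688 and 1723 CPM in Ctrl. These 2 genes weigh in the lower sum, while 3 markers had a positive log2 fold change: Klrk1 (0.01), Klrd1 (0.03) and Eomes (0.16). Reads outside any annotated gene made up 23.8% and 24.3% of reads in dKO, against 18.1% and 21.5% in Ctrl. Xist, the transcript of the inactive X chromosome, had 2 and 9 counts in dKO and 6066 and 6430 counts in Ctrl, and the Y-linked gene Ddx3y had 8933 and 6757 counts in dKO and 0 in both Ctrl libraries. By these transcripts both dKO libraries read as male and both Ctrl libraries as female. Genotype and sex therefore cannot be told apart for any gene compared here.

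Of the 10 genes, 0 rose and 0 fell in dKO relative to Ctrl NK cells (edgeR quasi-likelihood test, adjusted p under 0.05), where 0.316% of all tested genes were higher, 0.295% lower and 0.611% called in either direction. DESeq2 and limma-voom also called 0 of the 10. Their log2 fold changes lay between -0.52 for Plcg2 and 0.39 for Fcgr3, with a median of -0.11, beside a median of 0.01 over all tested genes. Before adjustment, 3 members had p under 0.05, and all 3 were lower in dKO: Plcg2, Zap70 and Cd247. Of all tested genes 5.24% were higher and 5.34% lower at that mark. The dKO and Ctrl values did not overlap in CPM for 4 members that were lower in dKO (Ncr1, Cd247, Zap70 and Plcg2). That position was held by 19.9% of all tested genes. They did not overlap in CPM for 1 member that was higher in dKO (Hcst), a position held by 21.7% of tested genes. For Ncr1 this held in CPM only, since its TPM, 1858 and 1684 in dKO and 2137 and 1788 in Ctrl, overlapped. These genes were abundant, and the median standard error (SE) of their log2 fold changes was 0.16, against 0.27 over all tested genes. In bulk RNA, fewer cells of a type and less RNA per cell cannot be told apart.

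**Figure D1:**
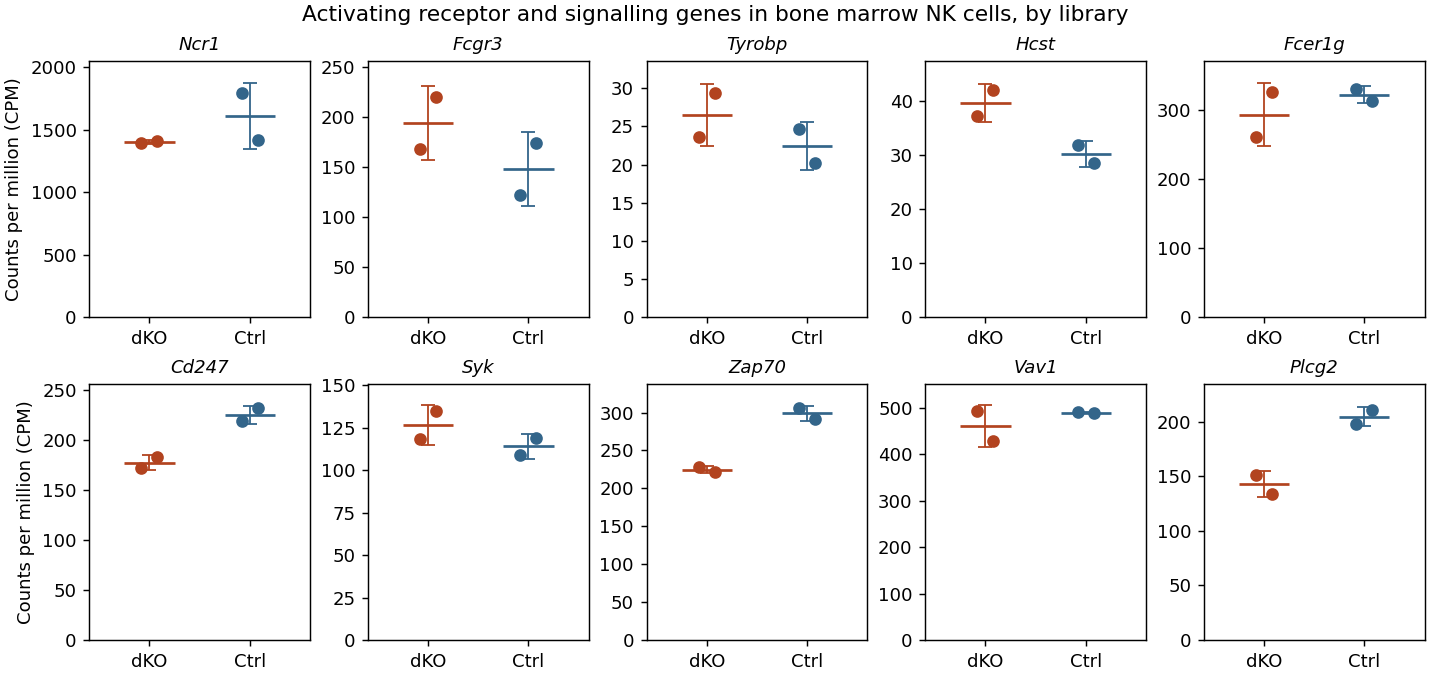
Level of each of the 10 genes in CPM (vertical axes, starting at 0), with dKO on the left and Ctrl on the right of each panel. Points are libraries, horizontal lines are means and bars are SD over 2 libraries. Zap70, Cd247 and Plcg2 have both dKO points below both Ctrl points, while Fcgr3, Tyrobp, Fcer1g, Syk and Vav1 overlap.

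The receptors were both well expressed. Ncr1 encodes NKp46, the natural cytotoxicity receptor that marks NK cells in mice. It had 1391 and 1414 CPM in the dKO libraries and 1795 and 1422 CPM in the Ctrl libraries. The dKO values lay just under the lower Ctrl value, and the spread between the Ctrl libraries was larger than that gap. The log2 fold change was -0.20 (SE 0.16, edgeR adjusted p = 0.756), with a 95% interval for the fold of 0.672 to 1.13. It was -0.02 without Ctrl replicate 1 and -0.35 without Ctrl replicate 2. Fcgr3 encodes the low-affinity Fc receptor CD16, through which NK cells kill cells coated with antibody. It had 168 and 220.03 CPM in dKO and 122 and 174 CPM in Ctrl. The groups overlapped, since dKO 1 lay below Ctrl 2. The log2 fold change of Fcgr3 was 0.39 (SE 0.22, edgeR adjusted p = 0.605), and the interval for the fold, 0.927 to 1.86, leaves a wide range. It was 0.15 without Ctrl replicate 1 and 0.18 without dKO replicate 2, but 0.67 without Ctrl replicate 2 and 0.57 without dKO replicate 1. Fcgr3 has close relatives in the Fc receptor family whose reads may not be fully separable.

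In length-scaled level (TPM), the ITAM adaptors differed more among themselves than between the genotypes. Fcer1g, the Fc receptor gamma chain, serves Fcgr3 and Ncr1. It had 261 and 326 CPM in dKO and 331 and 314 CPM in Ctrl. The higher dKO library lay between both Ctrl libraries. The log2 fold change was -0.14 (SE 0.16, edgeR adjusted p = 0.852), and it was 0.02 without dKO replicate 1 and -0.31 without dKO replicate 2. Cd247, the CD3 zeta chain, is the other partner of Ncr1 and is also part of the T cell receptor. It had 172 and 183 CPM in dKO and 219 and 231 CPM in Ctrl. Both dKO libraries were below both Ctrl libraries. The fold was 0.788 (95% interval 0.623 to 0.996; log2 fold change -0.34, SE 0.15), and it did not pass after adjustment (edgeR adjusted p = 0.462).

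Tyrobp, which encodes DAP12, the adaptor of activating Ly49 and CD94-NKG2C receptors, had 23.6 and 29.3 CPM in dKO and 24.7 and 20.2 CPM in Ctrl. The groups overlapped, and the log2 fold change was 0.24 (SE 0.23, edgeR adjusted p = 0.804). It was 0.07 without dKO replicate 2 and 0.10 without Ctrl replicate 2, but 0.38 without the first library of either group. Hcst, the adaptor of the receptor NKG2D, had 37.2 and 42.2 CPM in dKO and 31.95 and 28.6 CPM in Ctrl. Both dKO libraries were above both Ctrl libraries, by a fold of 1.31 (95% interval 0.956 to 1.799, edgeR adjusted p = 0.560). Tyrobp (chromosome 7 from 30413760 to 30417585, plus strand) and Hcst (30417712 to 30419854, minus strand) lie tail to tail on GRCm38 with 126 bases between them. They also had the most counts per RSEM estimate: 3.64 and 3.22 in dKO and 2.87 and 3.04 in Ctrl for Tyrobp, and 6.14 and 3.85 in dKO and 4.69 and 4.82 in Ctrl for Hcst. For the other 8 members this ratio lay between 1.89 and 2.25, so counts and RSEM estimates differed most for Tyrobp and Hcst. With RSEM counts the log2 fold change of Tyrobp was 0.06 and that of Hcst 0.44.

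Of the kinases that dock on the phosphorylated ITAM, Zap70 was the one whose groups stood apart. Zap70 had 228 and 221 CPM in dKO and 306 and 292 CPM in Ctrl. The gap between the groups was larger than the spread within either. The fold was 0.751 (95% interval 0.597 to 0.945; log2 fold change -0.41, SE 0.14), which did not pass after adjustment (edgeR adjusted p = 0.353). Syk, the kinase that couples to single ITAM chains in NK, B and myeloid cells, had 118 and 135 CPM in dKO and 109 and 119 CPM in Ctrl. The groups overlapped narrowly, and the log2 fold change was 0.15 (SE 0.16, edgeR adjusted p = 0.824). It was 0.05 without dKO replicate 2 and 0.08 without Ctrl replicate 1, but 0.24 without dKO replicate 1. As a ratio of length-scaled levels within each library, Zap70 over Syk was 5.13 and 4.28 in dKO and 7.39 and 6.51 in Ctrl. That ratio needs no scaling between libraries, and both dKO values were below both Ctrl values. An exact two-sided permutation test of the log2 ratio gave p = 0.333. That is the smallest p that 2 against 2 libraries allow, so the test could not have passed. The same ratio for the pair Cd247 over Fcer1g was 0.346 and 0.276 in dKO and 0.337 and 0.389 in Ctrl, and there the groups overlapped.

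Downstream of the kinases, Plcg2 had the lowest fold of the members. It encodes PLCgamma2, the phospholipase C isoform of B cells and NK cells. Plcg2 had 151 and 134 CPM in dKO and 198 and 211 CPM in Ctrl. Both dKO libraries lay well below both Ctrl libraries. The fold was 0.698 (95% interval 0.546 to 0.892; log2 fold change -0.52, SE 0.15), and it did not pass after adjustment (edgeR adjusted p = 0.261). Its log2 fold change lay between -0.61 and -0.44 over the 13 alternatives, with adjusted p between 0.120 and 0.680. Vav1, the exchange factor that activates Rac, had 493 and 429 CPM in dKO and 490.3 and 489 CPM in Ctrl. The Ctrl values lay inside the range of dKO, and the log2 fold change was -0.09 with an SE of 0.15 (edgeR adjusted p = 0.903). It was 0.008 without dKO replicate 2 and -0.19 without dKO replicate 1. For Vav1 the 95% interval of the fold ran from 0.742 to 1.19.

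**Figure D2:**
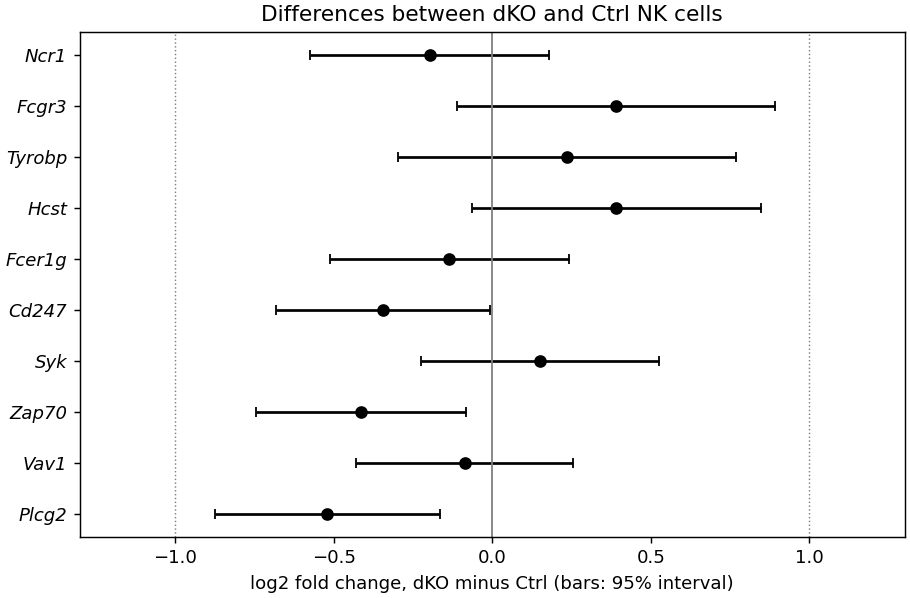
Log2 fold change of each gene, dKO minus Ctrl (horizontal axis), with 95% intervals from the edgeR fit; dotted lines mark 2-fold. The intervals of Cd247, Zap70 and Plcg2 lie below 0 before adjustment for the number of genes tested, those of the other 7 cross 0, and none reaches 2-fold in either direction.

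Every interval lay within a 2-fold change in either direction. The lowest bound was a fold of 0.546 (Plcg2) and the highest 1.86 (Fcgr3).

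Levels were compared between genes on the TPM scale, which divides by transcript length. Ncr1 led with 1771 ± 123 TPM in dKO and 1963 ± 247 TPM in Ctrl (SD, n = 2), followed by Fcer1g with 1120 ± 103 TPM in dKO and 1211 ± 17.7 TPM in Ctrl. Cd247 came next in both groups, at 346 ± 23.9 TPM in dKO and 440 ± 37.6 TPM in Ctrl. Below it, Fcgr3, Vav1, Hcst and Zap70 followed in that order in dKO, and each overlapped the next over its libraries. In Ctrl the order was Vav1, Zap70, Fcgr3 and Hcst, where Zap70 and Fcgr3 overlapped and the other neighbours did not. Tyrobp, Plcg2 and Syk were last in both groups, and Syk was the lowest, at 40.9 ± 0.240 TPM in dKO and 37.1 ± 3.51 TPM in Ctrl. Tyrobp and Plcg2 were at 91.4 ± 10.2 and 54.8 ± 9.81 TPM in dKO, where they did not overlap, and at 86.5 ± 12.6 and 78.2 ± 6.71 TPM in Ctrl, where they did. Fcer1g thus stood above Tyrobp in all 4 libraries, although both encode adaptors with a single ITAM. Tyrobp and Hcst had the most counts per RSEM estimate, as given above, so their places in this order are tied to the RSEM estimates.

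**Figure D3:**
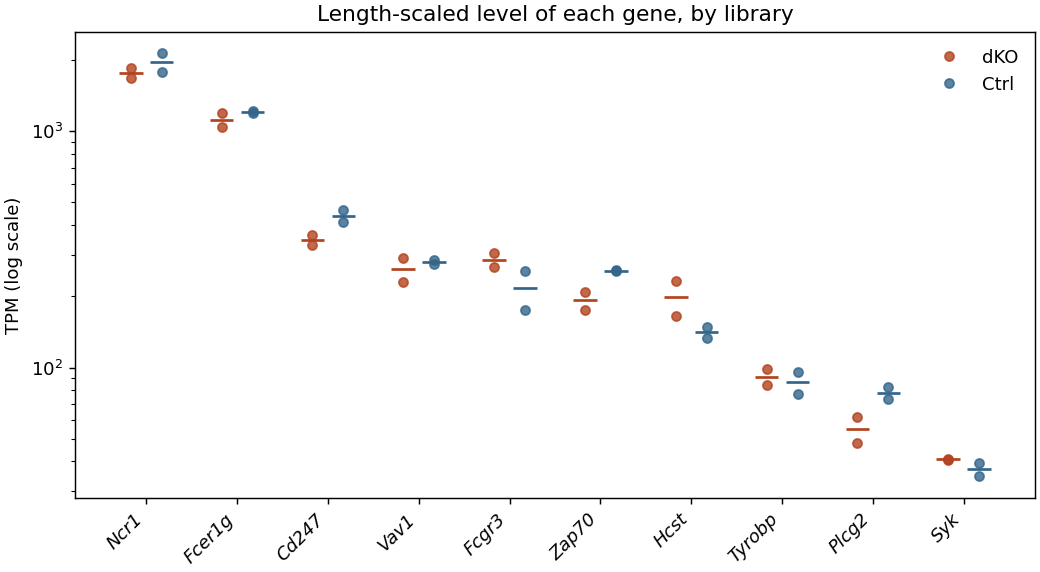
TPM of each gene on a log axis, in order of mean level, with dKO left of Ctrl for each gene; points are libraries and lines are means. Ncr1 and Fcer1g lie above the other genes in all 4 libraries and Syk lies lowest.

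Some of these genes are also used by other blood cells, so markers of such cells were set beside them. Cd247 and Zap70 are shared with T cells. Of 15 T cell markers, 13 had a negative log2 fold change, the median was -1.49, and 3 fell (edgeR adjusted p under 0.05): Cd3e, which had 8.90 and 12.2 CPM in dKO and 47.5 and 52.5 CPM in Ctrl, the T cell receptor constant gene Trac, which had 14.3 and 20.8 CPM in dKO and 58.2 and 73.2 CPM in Ctrl, and the gamma constant gene Tcrg-C, which had 22.03 and 22.8 CPM in dKO and 134 and 89.1 CPM in Ctrl. Before adjustment, 8 were lower and 0 higher at p under 0.05 (edgeR). Summed over the list, T cell markers were at 979 and 888 CPM in dKO and 1268 and 1162 CPM in Ctrl, and none was at 0 in any library. Trbc1 and Trbc2, with log2 fold changes of 0.22 and -0.37, had the highest CPM of the list in every library and weigh most in this sum. Of the 15 T cell markers, Lat is also in the list of scaffolds. The part of T cell transcripts in the values of Cd247 and Zap70 was not tested. Plcg2 and Syk are shared with B cells. The 10 B cell markers, none of which was called, summed to 123 and 154 CPM in dKO and to 130.2 and 276 CPM in Ctrl, with the second Ctrl library highest and none at 0. The fitted log2 fold change was below 0 in all 10 (median -0.57), and 3 were lower at an unadjusted p under 0.05. The smallest p of the list was that of Igll1, a surrogate light chain gene of B cell precursors, which had 0.778 and 0.496 CPM in dKO and 5.46 and 2.50 CPM in Ctrl (edgeR adjusted p = 0.145). The part of B cell transcripts in the values of Plcg2 and Syk was not tested. Fcer1g, Tyrobp and Fcgr3 are shared with myeloid cells. The 14 myeloid and neutrophil markers, none of which was called, summed to 2519 and 3737 CPM in dKO and to 3338 and 4111 CPM in Ctrl, with none at 0. The fitted log2 fold change was below 0 in 11 of them (median over the list -0.31), and 3 were lower at an unadjusted p under 0.05. In each group the library with the higher sum was also the one with more Fcgr3. Fcer1g and Tyrobp were also higher in that library in dKO, but lower in it in Ctrl. Between the groups Fcgr3 had a positive log2 fold change (0.39), as had 3 of these markers: Csf1r (0.02), Lyz2 (0.10) and S100a9 (0.12). Lyz2 was a large part of the sum, with 1160 and 1527 CPM in dKO and 1168 and 1338 CPM in Ctrl. The part of these cells in the values of Fcgr3, Fcer1g and Tyrobp was not tested. Basophil and mast cell markers, which share Fcer1g, summed to 106 and 118 CPM in dKO and to 85.7 and 132 CPM in Ctrl over 7 genes, none called and none at 0. Erythroid and platelet markers summed to 246 and 399 CPM in dKO and to 307 and 464 CPM in Ctrl over 8 genes, of which 6 were tested, none was called, and Gp9 was at 0 in 1 Ctrl library.

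A list of receptors set beside these adaptors gave no call either (edgeR). Of 16 tested receptor genes, 0 passed in either direction (1 higher and 0 lower at an unadjusted p under 0.05), 9 had a positive and 7 a negative log2 fold change, and the median was 0.02. Several were scarce, such as Fcgr1 at 0.747 and 0.397 CPM in dKO and 0.587 and 1.24 CPM in Ctrl. The median thus says little about the abundant receptors alone. The smallest p belonged to Klra4, the activating receptor Ly49D that signals through DAP12, at 912 and 1379 CPM in dKO and 809 and 802 CPM in Ctrl (log2 fold change 0.51 with SE 0.20, edgeR adjusted p = 0.430). It was 0.18 without dKO replicate 2 and 0.78 without dKO replicate 1. The groups did not overlap, but the dKO libraries differed widely, and reads of this gene family may not be separable. Klrb1c, the NK1.1 gene used in the sort, had 1438 and 1510 CPM in dKO and 1631 and 1896 CPM in Ctrl (log2 fold change -0.26, SE 0.15, edgeR adjusted p = 0.627).

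Src-family kinases act on the ITAM first. Of 10 tested genes for these kinases and their controls, 0 passed (1 higher and 0 lower at an unadjusted p under 0.05) and the median log2 fold change was -0.08. The sign of that median was not stable: it was 0.13 without Ctrl replicate 2 and 0.04 without dKO replicate 1, and 0.02 to 0.03 with the stricter filter, the replicate block or limma-voom. The filter left 11 genes without dKO replicate 1 and 9 with the stricter setting, so those 2 medians are over a different set of genes. Pag1, the membrane anchor of the inhibitory kinase Csk, had 84.5 and 91.5 CPM in dKO and 61.8 and 65.7 CPM in Ctrl, a log2 fold change of 0.47 with an SE of 0.17 (edgeR adjusted p = 0.372). Its groups stood apart without passing.

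Among 18 scaffolds and exchange factors 0 passed (2 higher and 1 lower at an unadjusted p under 0.05), with a median of -0.05. Rac1, the small GTPase that Vav1 activates, was nearest to the threshold of all pathway genes. It had 176 and 264 CPM in dKO and 113 and 76.4 CPM in Ctrl. Both dKO libraries were above both Ctrl libraries, and the spread within each group was wide (log2 fold change 1.22, SE 0.25, edgeR adjusted p = 0.105). Rac1 did pass with DESeq2 (adjusted p = 0.000266), with no filter (adjusted p = 1.99e-08), and without Ctrl replicate 1 (adjusted p = 0.0484) or dKO replicate 1 (adjusted p = 0.0175), within a range of adjusted p up to 0.214 over its 13 alternatives. The adaptor gene Grap followed, with 113 and 132 CPM in dKO and 80.6 and 96.8 CPM in Ctrl (log2 fold change 0.47, SE 0.18, edgeR adjusted p = 0.406).

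Of 26 genes of lipid and calcium signalling, 0 passed (1 higher and 0 lower at an unadjusted p under 0.05) and the median was 0.02. Malt1, the protease that carries the signal to NF-kB, had 119.6 and 112 CPM in dKO and 70.9 and 61.2 CPM in Ctrl. The dKO libraries were clearly above the Ctrl libraries (log2 fold change 0.81, SE 0.17, edgeR adjusted p = 0.106). It passed with DESeq2 (adjusted p = 0.00675) and with no filter (adjusted p = 0.00345), and missed the threshold in its other 11 alternatives, where adjusted p reached 0.291. Plcg1, the relative of Plcg2 used by T cells, was scarce, at 1.80 and 1.92 CPM in dKO and 3.67 and 3.13 CPM in Ctrl (log2 fold change -0.87, SE 0.45, edgeR adjusted p = 0.567).

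Of 18 brakes on activating signalling, 0 passed (0 higher and 3 lower at an unadjusted p under 0.05), while 14 had a negative log2 fold change and the median was -0.11. That median was 0.0077 without Ctrl replicate 2 and -0.0075 without dKO replicate 2, against -0.19 without Ctrl replicate 1 and -0.20 without dKO replicate 1. Sla, an adaptor that promotes loss of antigen receptor chains, had 440.3 and 447 CPM in dKO and 589 and 614 CPM in Ctrl (log2 fold change -0.44, SE 0.14, edgeR adjusted p = 0.306). Sit1, an inhibitory membrane adaptor of lymphocytes, had 0.809 and 1.39 CPM in dKO and 2.76 and 4.64 CPM in Ctrl (log2 fold change -1.75, SE 0.55, edgeR adjusted p = 0.287), levels at which counting error is large. In both genes the dKO libraries lay below the Ctrl libraries. Apart from Rac1 and Malt1 with DESeq2, no gene of these 5 lists was called by DESeq2 or limma-voom.

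**Figure D4:**
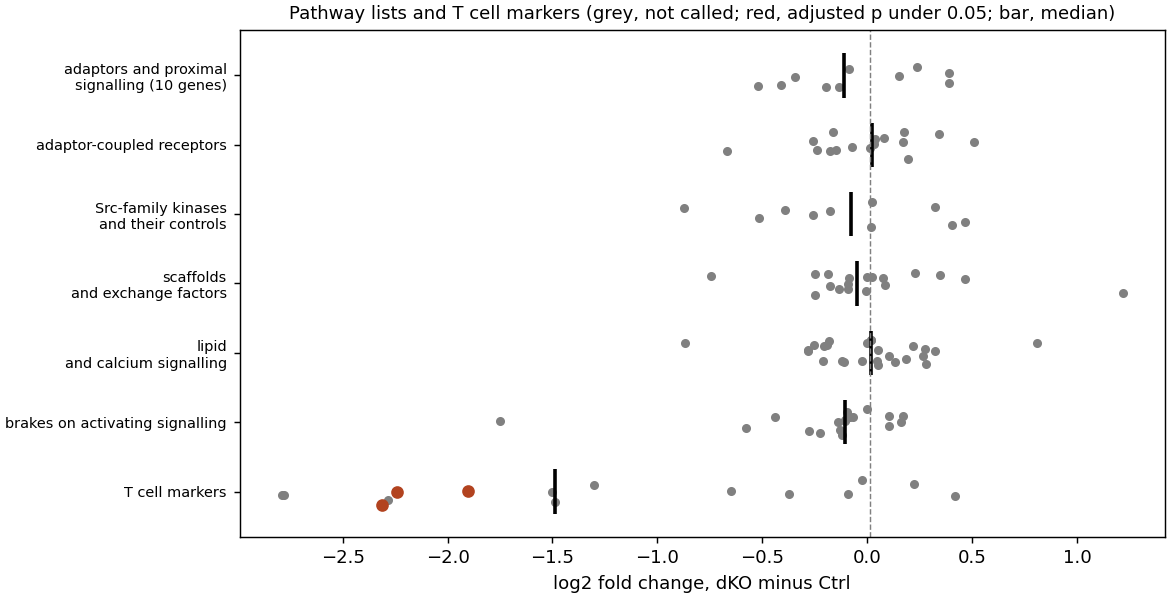
Log2 fold change of every tested gene (points, dKO minus Ctrl) in the group of 10, in 5 further lists of the pathway and among T cell markers; black bars are list medians and the dashed line is the median of all tested genes. The 3 red points, all T cell markers, are the genes that passed; Rac1 (1.22) and Malt1 (0.81) stand apart on the right without passing.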

How the data were processed

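Per library, the authors deposited a list of whole-number gene counts and an RSEM table with expected counts, TPM, FPKM and lengths, per the file headers. Tools named in the submitters' processing notes are TopHat2 2.1.1, HTSeq 0.6.1, RSEM 1.3.0, DESeq2 1.32.0, Trimmomatic 0.36 and FastQC 0.11.5, with the build mm9. Not given in the sources used here are the annotation release and the strand setting. FPKM values, which the authors also deposited, were not used. Reads given to no gene stayed out of library sizes (18.1% to 24.3% outside genes, 2.20% to 2.34% ambiguous). The whole-number counts were at a median 2.05 to 2.07 times the RSEM estimates, so counting error may exceed what counts alone give.

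Counts were tested across 13904 genes with edgeR 4.0.16 in R 4.3.3 (robust quasi-likelihood F test, TMM scaling, filter with a minimum count of 10, Benjamini-Hochberg adjustment, threshold 0.05). Fold changes are dKO over Ctrl. The SE was taken as the size of the log2 fold change over the root of F, and intervals (95%) use the fitted degrees of freedom. CPM are counts scaled by the TMM library size. TPM, deposited by the authors, served to compare levels between genes, for ratios of 2 genes within a library, and for Gabpb1. RSEM expected counts, deposited by the authors, were rounded to whole numbers for 1 alternative. DESeq2 1.42.0 and limma 3.58.1 were run as alternatives. The procedure was run on simulated data with planted changes of 2-fold or more. Those are larger than the fold of any member, so the run does not cover changes of the size reported here.

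The members and lists were chosen with earlier results of these data known. Named were all members and the targeted genes, and from each of 5 pathway lists every called gene or otherwise the 2 with the smallest p, of which 1 gene is not reported here. Gene positions are from GENCODE M21 (GRCm38) and promoter sequences from RefSeq (GRCm38.p6), not the build of the counts. Replicates are biological per the series design.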

Additional observations from a re-analysis of the deposited data

How the results depend on the processing

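None of the 10 members was called under any of the 13 alternatives (other scalings, filters and tools, a fit that is not robust, RSEM counts, the replicate number as a block, and each library left out in turn). The sign turned for Fcer1g without dKO replicate 1 (log2 fold change 0.0151, in a range of -0.3067 to 0.0151 with 1 library left out) and for Vav1 without dKO replicate 2 (0.008, in a range of -0.1909 to 0.008), and for no other member or named gene; the cause was not tested. With 1 library left out, the median log2 fold change ran from -0.12 to 0.05 for the list of receptors and from -0.07 to 0.08 for lipid and calcium signalling. With no filter and with DESeq2, 1 scaffold or exchange factor (Rac1) and 1 gene of lipid and calcium signalling (Malt1) were called, and with 1 library left out the scaffold list had 0 to 1 calls. All genes called numbered 85, against 559 with no filter, 147 with the stricter filter (minimum count of 50), 405 with DESeq2 and 73 to 187 with 1 library left out (187 without Ctrl replicate 2). The deviations of same-numbered replicates had a correlation of -0.05, which is a single value since with 2 libraries a group both pairs must give the same; the numbers were not taken to pair the samples, and with the replicate block 100 genes and 0 members were called. With 2 libraries a group, changes of the size seen here are hard to separate from the spread between libraries.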

Other observations

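RSEM also lists an average transcript length per gene, weighted by the estimated share of each transcript, which is a different readout from the level. For Zap70 this length was 2058 and 2090 bases in dKO and 2044 and 2044 bases in Ctrl, and for Vav1 it was 2976 and 2969 bases in dKO and 2935 and 2947 bases in Ctrl, so dKO was longer without overlap in both. For Syk it was 4675 and 4659 bases in dKO and 4726 and 4781 bases in Ctrl, and dKO was shorter without overlap; the same held for Hcst by under 1 base. Among 8848 tested genes whose length varies, 14.8% were longer and 17.6% shorter in dKO without overlap. No test was made, and the lengths are estimates that give no view of single transcripts.

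Hcst over Tyrobp, as a ratio of TPM within each library, was 1.96 and 2.35 in dKO and 1.55 and 1.73 in Ctrl, higher in both dKO libraries. Their counts and RSEM estimates differ in proportion between libraries, as given above, so this ratio is tied to the RSEM estimates. The exact two-sided permutation test of its log2 gave p = 0.333, again the smallest that 2 against 2 libraries allow.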
